A study of Mus musculus with 6 samples.

Results

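The chemokine ligands other than Cxcl12 were compared between CD73+ and CD73- AD-MSCs, the cultured stromal cells of adipose tissue. They were taken as every gene whose symbol in the array platform's annotation starts with Ccl, Cxcl, Cx3cl or Xcl and goes on with a number, on probe sets annotated to a single gene, with Cxcl12 left out. A probe set is a group of short probes that together read a transcript. Membership rests on names and used no measured value, but the group itself was chosen with earlier results of these data known. It gave 32 of the 18193 genes measured, on 48 of 45037 probe sets. Of these ligands, 20 had 1 probe set and 12 had several, and each gene was read from its brightest probe set. Ccl26 had no probe set annotated to it alone. Ccl19, Ccl21a, Ccl21b, Ccl21c and Ccl27b were named only on 4 probe sets that carry several symbols, whose differences ran from -0.10 to 0.04 on the log2 scale and did not pass the test.

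The cells came from the groin fat of adult C57BL/6 mice. Both subgroups were obtained by sorting on CD73 in a flow cytometer, CD73 being the ectonucleotidase that turns extracellular AMP into adenosine, and were then grown further in low sugar DMEM with fetal bovine serum, with no agent, transgene or mutation named for either. Total RNA of the fifth passage was read on Affymetrix arrays, 3 for CD73+ and 3 for CD73- AD-MSCs. Nothing in the labels tells whether the arrays of a subgroup stand for separate animals, sorts or cultures. The p-values therefore cover the scatter among arrays alone, and that scatter may be technical. Values are log2 signals, and differences are CD73+ minus CD73-, so that 1 on this scale is a doubling.

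Chemokines are small secreted proteins that bind heparan sulphate on cells and matrix and direct the movement of leukocytes through G protein-coupled receptors. Families are named for the spacing of their first cysteines. CXC ligands with a glutamate-leucine-arginine (ELR) motif attract neutrophils, the monocyte chemoattractant proteins (MCP) attract monocytes, and the interferon-induced CXC ligands attract activated T cells. Stromal cells of adipose tissue are a known source of several of them, and inflammatory signals that act through NF-kB raise many of these genes.

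Of the 32 ligands, 10 were higher in CD73+ AD-MSCs and 5 were lower (limma, Benjamini-Hochberg adjustment over all probe sets, threshold 0.05), and 17 did not pass. That is 31.2% of the ligands higher and 15.6% lower, while 10.1% of all genes were higher and 12.6% were lower. All 3 CD73+ arrays lay above all 3 CD73- arrays for 11 ligands and below them for 8, where 18.1% of all genes lay wholly above and 22.7% wholly below. The subgroups did not overlap for any of the 15 ligands that passed, which rests on the same values as the test and adds no support to it. The median difference of the 32 ligands was 0.06, and that of all genes was -0.02. The higher ligands were Cxcl5, Cxcl1, Ccl7, Ccl2, Ccl9, Ccl8, Cxcl2, Ccl20, Cxcl3 and Cx3cl1, and the lower ones were Cxcl11, Ccl5, Cxcl10, Cxcl16 and Ccl24.

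**Figure D1:**
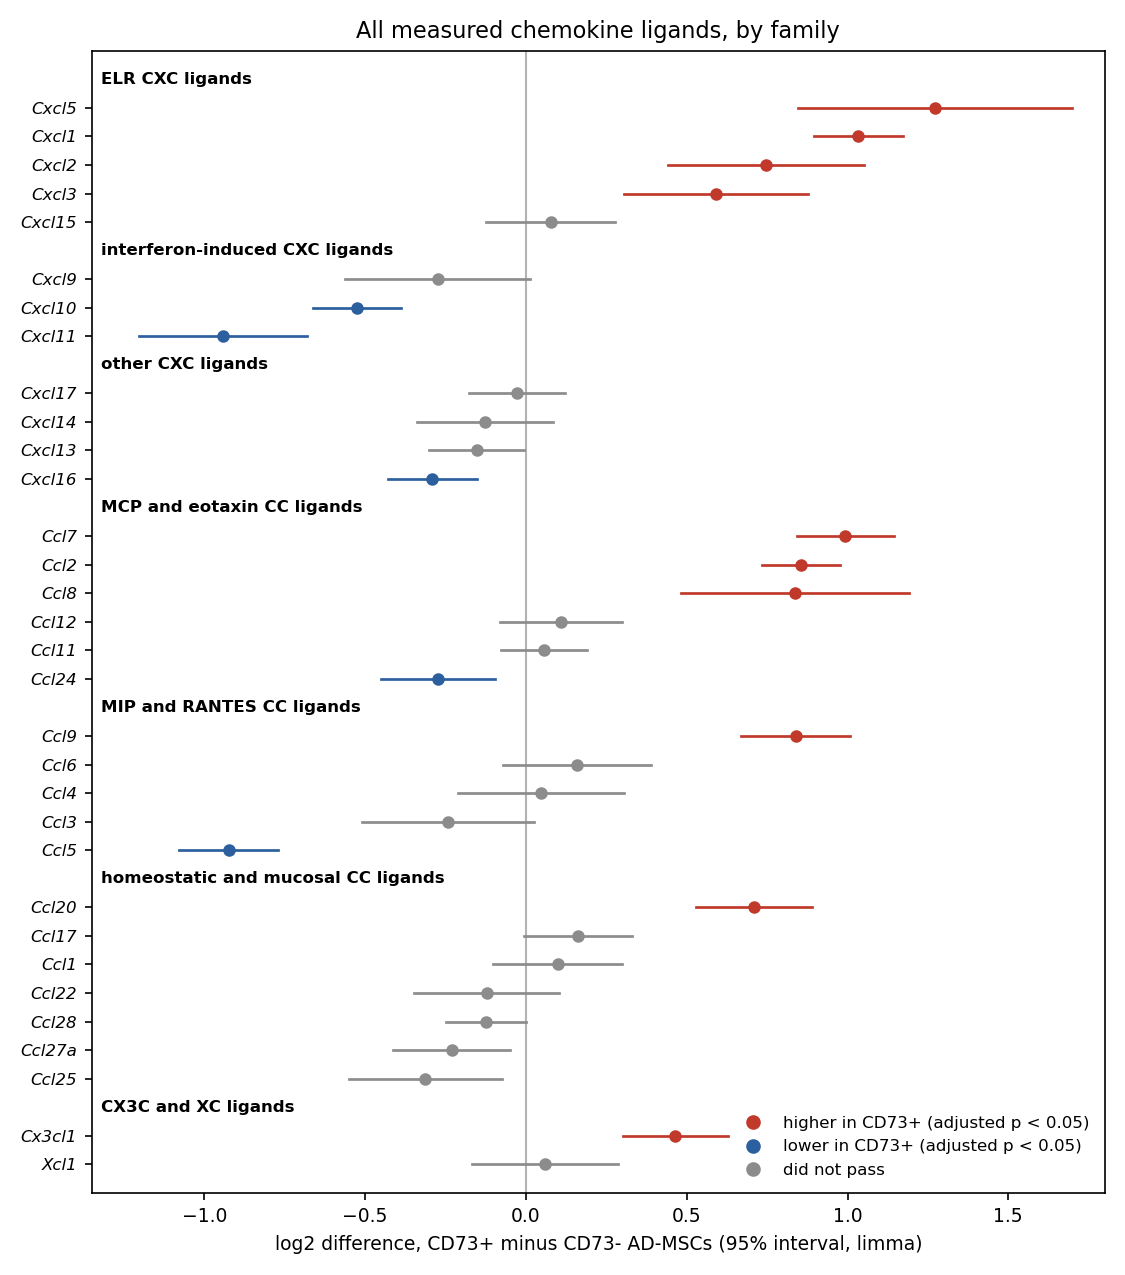
Log2 difference (CD73+ minus CD73- AD-MSCs, horizontal axis) of all 32 chemokine ligands by family, with 95% intervals from limma and 3 arrays in each subgroup. The 10 ligands higher in CD73+ cells (red) run from 0.46 to 1.27, the 5 lower ones (blue) from -0.94 to -0.27, and the 17 that did not pass (grey) from -0.31 to 0.16, all relative to the bulk of transcripts on the arrays.

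Every direction given here is relative to the bulk of transcripts, since the deposited values had been normalized between arrays. The 12 probe sets of the poly-A controls, which are RNAs added in the laboratory, were on average -0.93 apart in CD73+ against CD73- arrays. Scaling each array to them raised every difference by 0.93 and the median of all probe sets to 0.93. On that scale 30 ligands were higher and 0 were lower, with 18 ligands above and 14 below the shifted median. So were nearly all probe sets, with 44707 of 45037 higher and 33 lower. At an unadjusted p under 0.05 in limma, 18 of the 32 ligands differed on the deposited scale, beside 6230 of all 18193 genes. Because RNA of whole cultures was read, fewer cells of a type and less RNA per cell cannot be told apart.

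A signal depends on the probes as well as on the transcript, so levels of different genes are not set against each other. As a guide to brightness, 18 ligands had a mean signal above the median probe set of the arrays (5.33), and 8 of these were higher, 5 lower and 5 did not pass. Of the 14 ligands at or below it, the higher ones were Cxcl3 and Cxcl5, and the other 12 did not pass. Genes restricted to other organs, 14 of them, had signals from 2.73 to 7.02, the brightest being Cela1, a pancreatic elastase, which was itself higher by 1.07. Above Cela1 lay 8 ligands, of which 7 passed, and at or below it lay 24, of which 8 passed. The next brightest of these organ genes, Pomc, had 6.43, and Cx3cl1 (6.45) lay between it and Cela1.

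**Figure D2:**
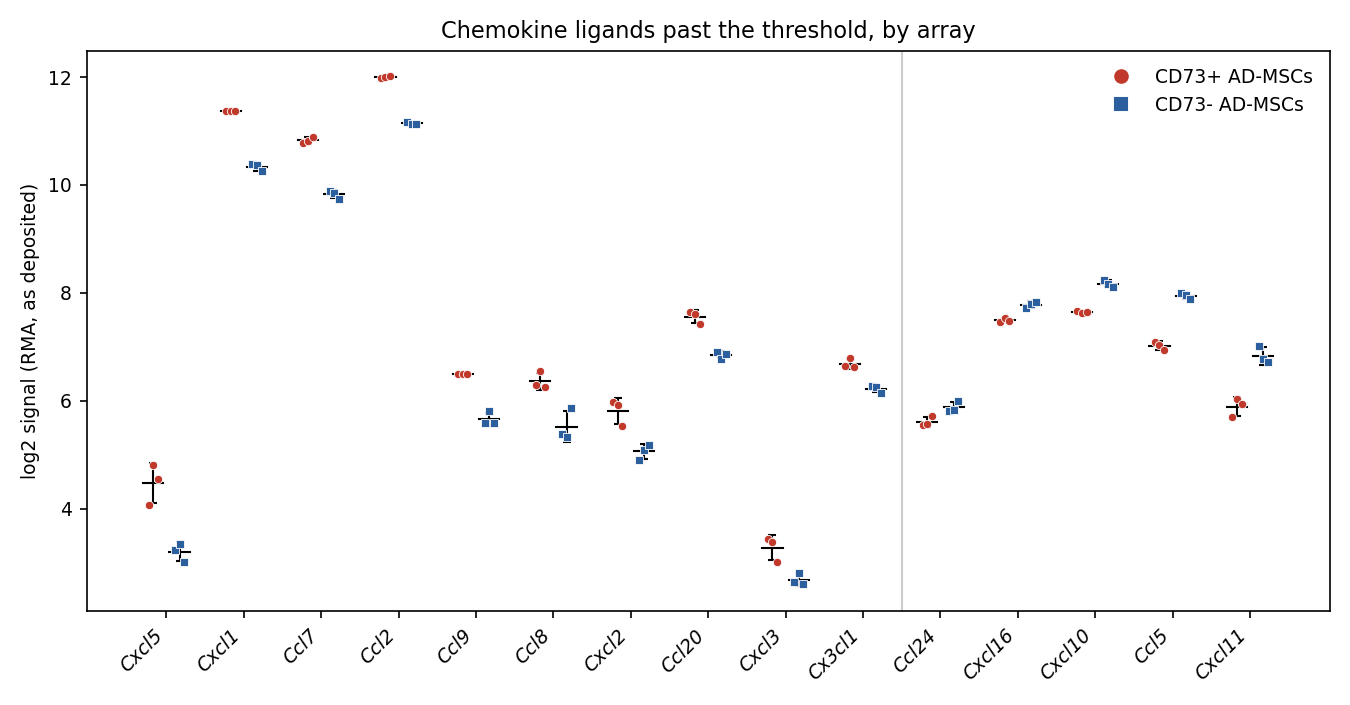
Log2 signal (vertical axis) of the 15 chemokine ligands past the threshold on each array, with CD73+ AD-MSCs as circles to the left and CD73- AD-MSCs as squares to the right of each pair. Horizontal lines are means and bars are SD (n = 3 arrays each); the 10 ligands left of the grey line were higher and the 5 right of it lower in CD73+ cells, relative to the bulk of transcripts, and no pair overlaps.

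Of the 5 measured ELR CXC ligands, which draw neutrophils through the receptor Cxcr2, 4 (80%) were higher in CD73+ AD-MSCs, beside 10.1% of all genes. The median difference of the group was 0.75. The mean signal of the 5 genes lay between 5.71 and 5.88 on CD73+ arrays, against 4.97 to 5.09 on CD73- arrays. Cxcl1, the mouse growth-regulated chemokine, had log2 signals of 11.37, 11.36 and 11.37 in CD73+ AD-MSCs, against 10.39, 10.36 and 10.26 in CD73- AD-MSCs. It was among the brightest probe sets of the arrays, and the lowest CD73+ array lay far above the highest CD73- array. The difference was 1.03 ± 0.06 (SE), a 2.05-fold higher signal (adjusted p = 0.000133).

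A further probe set of Cxcl1 gave 1.04 (adjusted p = 0.000131). The dimmest of the 3 gave 0.41 and did not pass (adjusted p = 0.113), with 9.52, 9.75 and 9.28 in CD73+ arrays, against 9.10, 8.87 and 9.36 in CD73- arrays. There the subgroups overlapped. Cxcl5, which in mice also acts on Cxcr2, had 4.07, 4.80 and 4.55 in CD73+ AD-MSCs, against 3.24, 3.35 and 3.01 in CD73- AD-MSCs. Its difference of 1.27 ± 0.18 (SE) had the largest size among the 32 ligands and also a wide interval, 0.85 to 1.70 (adjusted p = 0.00308), on a dim probe set with no array above the median of the arrays.

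Cxcl2, another neutrophil attractant, had 5.98, 5.92 and 5.53 in CD73+ AD-MSCs, against 4.90, 5.09 and 5.19 in CD73- AD-MSCs. The closest arrays of the subgroups were then less apart than for Cxcl1, with a difference of 0.75 ± 0.13 (SE, adjusted p = 0.00701). Cxcl3, a close relative of Cxcl1 and Cxcl2, had 3.43, 3.39 and 3.01 in CD73+ AD-MSCs, against 2.64, 2.81 and 2.60 in CD73- AD-MSCs. The difference was 0.59 ± 0.12 (SE, adjusted p = 0.0139) at signals near the lowest on the arrays, and leaving out single arrays took its adjusted p as high as 0.0531. Cxcl15, known from lung, was 0.08 apart on its brightest probe set and did not pass (adjusted p = 0.627). Its dimmer probe set had 3.44, 3.46 and 3.31 in CD73+ arrays, against 3.20, 3.01 and 2.94 in CD73- arrays, and passed with a difference of 0.35 (adjusted p = 0.0244).

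The stretches of promoter that follow are shown because Cxcl1, Cxcl2 and Cxcl3 hold the same letters, GGAATTTCC, one of the forms an NF-kB binding site can take. They run from 110 bases to 1 base before the start site in the RefSeq annotation of GRCm38.p6, on the plus strand, at chr5:90891135-90891244, chr5:90903789-90903898 and chr5:90785991-90786100, with the motif in capitals.
Cxcl1: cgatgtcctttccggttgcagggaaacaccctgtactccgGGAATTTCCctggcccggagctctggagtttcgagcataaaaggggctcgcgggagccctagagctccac
Cxcl2: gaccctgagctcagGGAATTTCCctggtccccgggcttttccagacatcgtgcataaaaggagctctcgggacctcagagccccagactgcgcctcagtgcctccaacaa
Cxcl3: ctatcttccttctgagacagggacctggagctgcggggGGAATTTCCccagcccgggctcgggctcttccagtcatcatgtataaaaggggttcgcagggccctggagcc

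The motif lies 70 to 62 bases before the start in Cxcl1, 96 to 88 in Cxcl2 and 72 to 64 in Cxcl3. A promoter window was found in the RefSeq table for 22 of the 32 ligands, and for 7 of the 10 higher ones, 1 of the 5 lower ones and 14 of the 17 that did not pass. Searched on both strands over 250 bases before the start, GGAATTTCC was in 0.286% of all 32851 windows of this length. Among the ligands it was in the windows of Cxcl1, Cxcl2, Cxcl3 and Cxcl10, which are 3 of the 7 higher ones, the lower one, and none of the 14 that did not pass. A match of letters is not evidence of binding, and Cxcl1, Cxcl2 and Cxcl3 are close relatives, so their matches are not independent. Cxcl5, Ccl2, Ccl4, Ccl5, Ccl7, Ccl11, Ccl24, Cxcl11, Cxcl16 and Cxcl17 were not searched.

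The MCP and eotaxin group of CC ligands had 3 of 6 measured members higher (50%) and 1 lower (16.7%), beside 10.1% and 12.6% of all genes. The median difference of the group was 0.47. The mean signal of the 6 genes was 6.90 to 6.97 on CD73+ arrays, against 6.45 to 6.59 on CD73- arrays. Ccl2, the main monocyte attractant and a ligand of Ccr2, had 11.98, 12.00 and 12.01 in CD73+ AD-MSCs, against 11.17, 11.13 and 11.13 in CD73- AD-MSCs. The arrays of each subgroup lay close together, and the difference of 0.86 ± 0.05 (SE, adjusted p = 0.000156) was a 1.81-fold higher signal in CD73+ cells. Ccl7, which also binds Ccr2, had 10.77, 10.82 and 10.88 in CD73+ AD-MSCs, against 9.89, 9.85 and 9.75 in CD73- AD-MSCs. Its difference was 0.99 ± 0.06 (SE), 1.99-fold (adjusted p = 0.000191).

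Ccl8, which in mice acts on Ccr8, had 6.29, 6.54 and 6.25 in CD73+ AD-MSCs, against 5.37, 5.33 and 5.86 in CD73- AD-MSCs. The third CD73- array lay nearer to the CD73+ arrays than the other two did, and the difference was 0.84 ± 0.15 (SE, adjusted p = 0.00813). Ccl24, an eotaxin that attracts eosinophils through Ccr3, ran the other way, with 5.55, 5.57 and 5.71 in CD73+ AD-MSCs, against 5.82, 5.83 and 6.00 in CD73- AD-MSCs. Its difference of -0.27 ± 0.08 (SE) was just past the threshold (adjusted p = 0.0448), and leaving out single arrays gave adjusted p-values from 0.0372 to 0.150. Ccl11, the other eotaxin measured, was 0.06 apart and Ccl12, a mouse Ccr2 ligand, 0.11 apart, and neither passed (adjusted p = 0.596 and 0.443).

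The MIP and RANTES group, which attracts monocytes and T cells, split, with 1 of 5 higher, 1 lower and 3 that did not pass. That is 20% each way, beside 10.1% of all genes higher and 12.6% lower. Ccl9, a ligand of Ccr1 in mice, had 6.50, 6.49 and 6.50 in CD73+ AD-MSCs, against 5.59, 5.80 and 5.58 in CD73- AD-MSCs. All CD73+ arrays lay well clear of the CD73- arrays, by 0.84 ± 0.07 (SE, adjusted p = 0.000457), and its second probe set differed by 0.79 (adjusted p = 0.000217). Ccl5, also called RANTES, had 7.10, 7.03 and 6.94 in CD73+ AD-MSCs, against 8.0, 7.95 and 7.89 in CD73- AD-MSCs. It was lower in CD73+ cells by a margin wider than the spread of either subgroup, with a difference of -0.92 ± 0.07 (SE, adjusted p = 0.000242), a 1.90-fold lower signal. Ccl3, also known as MIP-1 alpha, had 4.21, 4.61 and 4.51 in CD73+ AD-MSCs, against 4.60, 4.63 and 4.82 in CD73- AD-MSCs. These overlapped, and its difference of -0.24 did not pass (adjusted p = 0.205), nor did those of Ccl4 (0.05) and Ccl6 (0.16).

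The 3 interferon-induced CXC ligands, which share the receptor Cxcr3 and attract activated T and NK cells, all had negative differences, with a median of -0.52. Of them 2 (66.7%) passed as lower, beside 12.6% of all genes. The mean signal of the 3 ligands lay between 6.14 and 6.22 on CD73+ arrays, against 6.69 to 6.89 on CD73- arrays. Cxcl10 had 7.66, 7.62 and 7.64 in CD73+ AD-MSCs, against 8.23, 8.17 and 8.10 in CD73- AD-MSCs. The CD73+ arrays were nearly level and all below the CD73- arrays, with a difference of -0.52 ± 0.06 (SE, adjusted p = 0.00118). Cxcl11 had 5.70, 6.03 and 5.94 in CD73+ AD-MSCs, against 7.01, 6.77 and 6.71 in CD73- AD-MSCs.

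The difference of Cxcl11 was -0.94 ± 0.11 (SE), a 1.92-fold lower signal (adjusted p = 0.00148). RefSeq lists Cxcl11 as a transcribed pseudogene in the reference assembly, which is of a C57BL/6 strain, so the value is that of a transcript. Its second probe set had signals near the lowest on the arrays in every sample, 2.80, 2.74 and 2.77 in CD73+ arrays, against 2.87, 2.73 and 2.79 in CD73- arrays, and did not pass (adjusted p = 0.820). Cxcl9 had 5.29, 4.95 and 4.83 in CD73+ AD-MSCs, against 5.41, 5.21 and 5.27 in CD73- AD-MSCs, which overlapped, and its difference of -0.27 did not pass (adjusted p = 0.184, 95% interval -0.56 to 0.01), although it was -0.41 and passed without CD73+ replicate 1 (adjusted p = 0.0321).

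The promoter of Cxcl10 is shown because it carries both kinds of motif searched, the NF-kB form on the opposite strand, written GGAAATTCC, and the core of an interferon regulatory factor site, GAAANNGAA, where N is any base. The stretch runs from 230 to 81 bases before the start on the minus strand, chr5:92348970-92349119 in GRCm38.p6, with both motifs in capitals, the interferon core before the NF-kB form.
Cxcl10: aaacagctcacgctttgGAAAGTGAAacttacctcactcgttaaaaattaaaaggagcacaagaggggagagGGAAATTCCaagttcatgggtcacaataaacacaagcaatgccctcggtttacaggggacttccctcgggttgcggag

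The interferon core lies 213 to 205 and the NF-kB form 158 to 150 bases before the start. GAAANNGAA was in 7.13% of all windows, and among the ligands in those of Cxcl10, Cxcl9, Ccl1, Ccl3 and Cxcl14. Of these 5, Cxcl10 was lower and the other 4 did not pass.

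Among the other CXC ligands, Cxcl16 is made as a membrane protein that cells can shed, and it binds Cxcr6. It had 7.46, 7.53 and 7.48 in CD73+ AD-MSCs, against 7.72, 7.79 and 7.84 in CD73- AD-MSCs, a difference of -0.29 ± 0.06 (SE, adjusted p = 0.0131). The margin was narrow, and leaving out single arrays gave adjusted p-values from 0.0225 to 0.0594. Its second probe set had 5.99, 6.28 and 5.98 in CD73+ arrays, against 7.02, 6.82 and 6.45 in CD73- arrays, with a difference of -0.69 (adjusted p = 0.0182). Both probe sets then had all CD73+ arrays below all CD73- arrays. Cxcl13, the B cell attractant that binds Cxcr5, was -0.15 apart with no overlap and did not pass (adjusted p = 0.152), and Cxcl14 and Cxcl17 were -0.13 and -0.03 apart and overlapped.

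Among the 7 measured homeostatic and mucosal CC ligands, which guide lymphocytes and dendritic cells to lymphoid tissue, skin and gut, 1 was higher and 6 did not pass. That is 14.3% higher and 0 lower, beside 10.1% and 12.6% of all genes. Ccl20, the ligand of Ccr6, had 7.65, 7.61 and 7.43 in CD73+ AD-MSCs, against 6.91, 6.77 and 6.87 in CD73- AD-MSCs. Its CD73+ arrays were all above its CD73- arrays, by 0.71 ± 0.08 (SE, adjusted p = 0.00104), 1.64-fold. Ccl25, the ligand of Ccr9, had 6.89, 7.06 and 6.89 in CD73+ AD-MSCs, against 7.30, 7.42 and 7.06 in CD73- AD-MSCs. These overlapped, and the difference of -0.31 ± 0.10 (SE) did not pass (adjusted p = 0.0756).

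Ccl20 is shown because its promoter holds a variant NF-kB form, GGGNTTTCC read on the opposite strand, 80 to 72 bases before the start. The stretch is 110 bases to 1 base before the start on the plus strand, chr1:83116656-83116765 in GRCm38.p6, with the motif in capitals.
Ccl20: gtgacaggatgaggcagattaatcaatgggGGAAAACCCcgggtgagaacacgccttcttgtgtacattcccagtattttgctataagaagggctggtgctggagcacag

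This variant form was in 1.46% of all windows and in those of Ccl20, Ccl9 and Cxcl9, of which the first 2 were higher and Cxcl9 did not pass. In Ccl9 it lies 35 to 27 bases before the start. Ccl27a and Ccl28, ligands of Ccr10 made by epithelia, were -0.23 and -0.12 apart, Ccl17 and Ccl22, ligands of Ccr4, were 0.16 and -0.12 apart, and Ccl1, a Ccr8 ligand, was 0.10 apart. None of these 5 passed (adjusted p from 0.0825 to 0.516), although all CD73+ arrays lay below all CD73- arrays for Ccl27a and Ccl28 and above them for Ccl17.

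Cx3cl1, or fractalkine, is a membrane-bound adhesive chemokine of the receptor Cx3cr1. It had 6.65, 6.79 and 6.62 in CD73+ AD-MSCs, against 6.27, 6.25 and 6.14 in CD73- AD-MSCs, a difference of 0.46 ± 0.07 (SE, adjusted p = 0.00385). A second probe set was higher by 0.29 (adjusted p = 0.0262), and the dimmer 2 of its 4 probe sets differed by 0.10 and 0.15 and did not pass. Xcl1, a lymphocyte chemokine of the receptor Xcr1, was 0.06 apart and overlapped (adjusted p = 0.761).

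The 17 ligands that did not pass had differences from -0.31 to 0.16, with 95% intervals that together span -0.56 to 0.39 and mean signals from 2.99 to 7.11. For 4 of them the subgroups did not overlap, where 18.1% of all genes lay wholly above and 22.7% wholly below. Intervals of this width leave room in some of them for a difference the size of that of Cxcl16, so these data do not show that the 17 were equal in the subgroups.

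**Figure D3:**
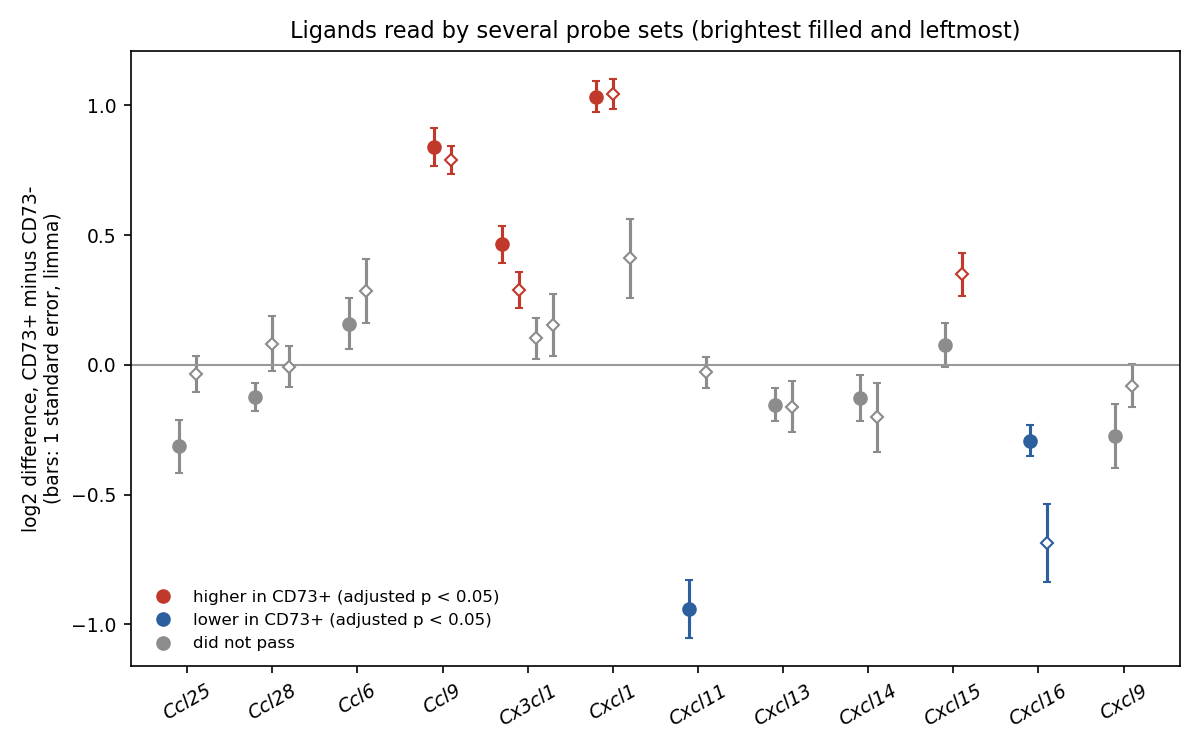
Log2 difference (CD73+ minus CD73- AD-MSCs, vertical axis) for each probe set of the 12 ligands read by several, the brightest as a filled circle and the others as open diamonds, with bars of 1 standard error from limma. Ccl9 and Cxcl16 passed on all of their probe sets, and Cxcl1, Cx3cl1 and Cxcl11 passed on some, while Cxcl15 passed on its dimmer probe set alone; directions are relative to the bulk of transcripts.

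Of the 12 ligands with several probe sets, Ccl9 and Cxcl16 passed the same way on both. Cxcl1 passed on 2 of 3, Cx3cl1 on 2 of 4 and Cxcl11 on 1 of 2, and no ligand passed in opposite directions. The other 7 higher ligands had 1 probe set each, as did Ccl5, Cxcl10 and Ccl24 among the lower ones.

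Most ligands lie in clusters of neighbouring genes, here in the order of the RefSeq table for GRCm38.p6. On chromosome 5 the order of the ELR cluster was Cxcl5 (1.27), Ppbp (1.29), Pf4 (-0.07), Cxcl3 (0.59), Cxcl15 (0.08), Cxcl1 (1.03) and Cxcl2 (0.75), each with its difference. Ppbp and Pf4, platelet chemokines whose symbols fall outside the naming rule, stand inside this cluster. Ppbp had 6.18, 6.47 and 6.29 in CD73+ AD-MSCs, against 5.0, 5.08 and 4.98 in CD73- AD-MSCs, and passed (adjusted p = 0.000182), while Pf4 did not (adjusted p = 0.760). Cxcl9 (-0.27), Cxcl10 (-0.52) and Cxcl11 (-0.94) come next on the same chromosome, the last 2 of them lower and Cxcl9 not past the threshold.

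On chromosome 11 Ccl2 (0.86) and Ccl7 (0.99) are followed by Ccl11 (0.06) and Ccl12 (0.11), then by Ccl8 (0.84) and Ccl1 (0.10). Ccl5 (-0.92) and Ccl9 (0.84), which passed in opposite directions, are neighbours among the measured ligands. Ccl6 (0.16), Ccl3 (-0.24) and Ccl4 (0.05) close the cluster. On chromosome 8, Ccl22 (-0.12), Cx3cl1 (0.46) and Ccl17 (0.16) are adjacent, and Cx3cl1 alone of them passed.

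**Figure D4:**
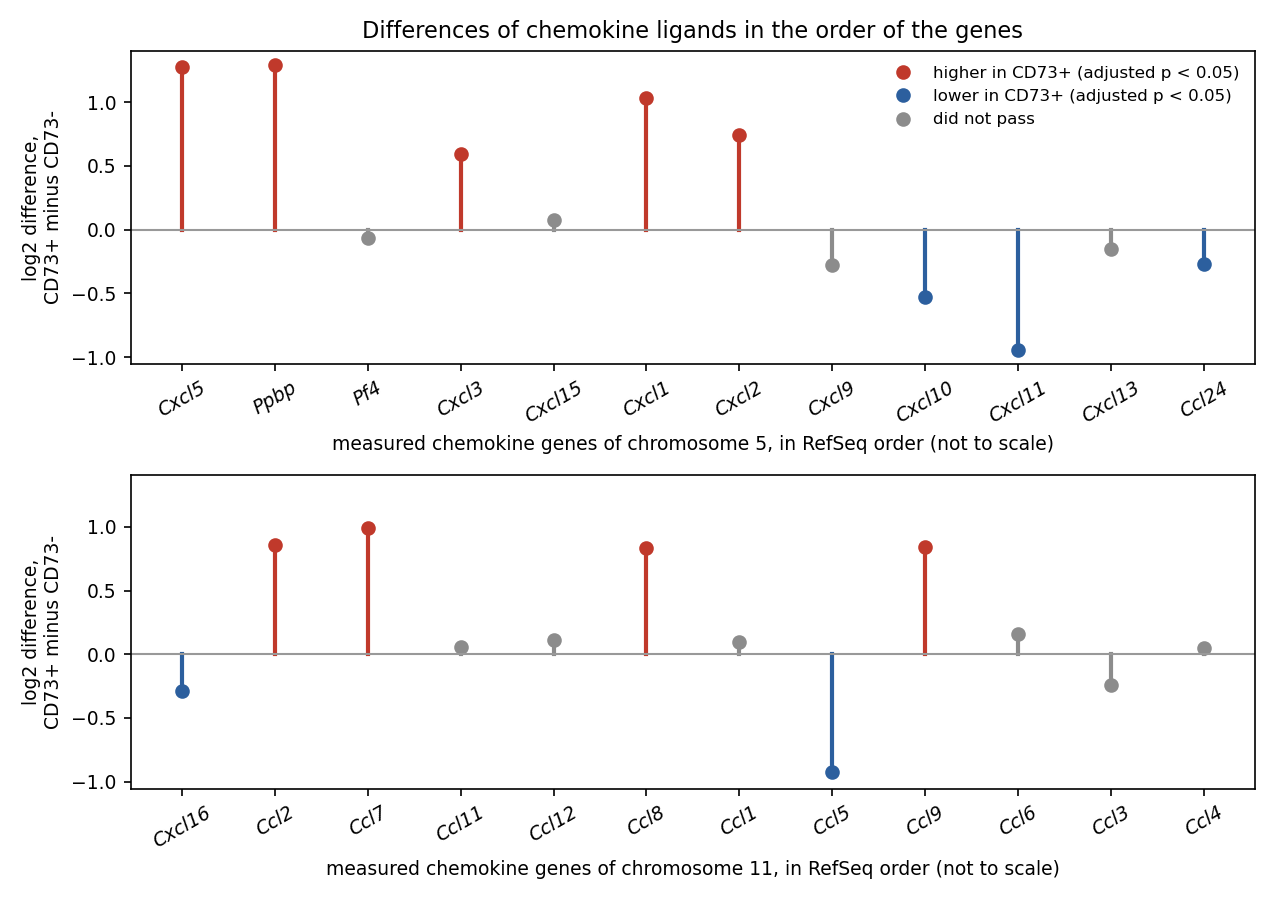
Log2 difference (CD73+ minus CD73- AD-MSCs, vertical axis) of the measured chemokine genes of chromosome 5 (top) and chromosome 11 (bottom) in RefSeq order, spaced evenly and not to scale. The ELR ligands and Ppbp stand at the left of chromosome 5 with differences up to 1.29, Cxcl10 and Cxcl11 lie below 0, and Ccl5 (-0.92) and Ccl9 (0.84) are neighbours on chromosome 11, relative to the bulk of transcripts.

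The other genes of the chemokine system were described by 8 lists, of which 109 of 117 genes were measured, with 28 (25.7%) higher and 12 (11%) lower in CD73+ AD-MSCs, against 10.1% and 12.6% of all genes. The conventional receptors had 1 of 16 higher (6.25%), and the other 15 did not pass, with differences from -0.23 to 0.14. Cxcr6, the receptor of Cxcl16, had 6.51, 6.69 and 6.38 in CD73+ AD-MSCs, against 5.39, 5.18 and 5.78 in CD73- AD-MSCs, a difference of 1.07 ± 0.15 (SE, adjusted p = 0.00315). The receptor was thus higher where its ligand was lower, but the mean signal of Cxcr6 (5.99) lay under those of the organ genes Pomc and Cela1. The call of Cxcl16 was also lost without some single arrays. Among other receptors of ligands that passed, the differences were -0.15 for Cxcr2, -0.15 for Ccr2, -0.17 for Ccr8, -0.17 for Ccr1, 0.02 for Ccr3, -0.23 for Ccr6, 0.00 for Cx3cr1 and -0.02 for Cxcr3, with mean signals from 3.22 to 5.68, and none of these 8 passed. Without CD73+ replicate 3, the difference of Ccr6 was -0.38 and passed (adjusted p = 0.0226). The dimmest probe set of Ccr2 passed, 0.28 higher in CD73+ cells.

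Among 5 atypical receptors, which take up chemokines without G protein signalling, Ackr3 was higher by 0.69 ± 0.16 (SE, adjusted p = 0.0223). It binds Cxcl11 as well as Cxcl12, its probe set was dim (mean signal 3.83), and it no longer passed without some single arrays or with a replicate block (adjusted p = 0.0685). In the signalling list, 4 of 19 (21.1%) were higher and 1 (5.26%) lower, beside 10.1% and 12.6% of all genes. Rgs2 (0.49), a brake on G proteins, and Plcb3 (0.47), a phospholipase, were among the higher ones, and Gnb1 (-0.36), a G protein subunit, was lower. Rgs2 lost its call without most of the single arrays, and Gnb1 did not pass on its dimmest probe set (adjusted p = 0.805).

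Proteases that trim or shed chemokines had 5 of 15 higher (33.3%) and 10 that did not pass, beside 10.1% of all genes higher and 12.6% lower. Adam8, a membrane protease, had 7.58, 7.76 and 7.51 in CD73+ AD-MSCs, against 6.00, 6.09 and 5.98 in CD73- AD-MSCs, a difference of 1.59 ± 0.08 (SE, adjusted p = 9.56e-05). Mmp2, a gelatinase that can cleave Ccl7, was higher by 0.44 (adjusted p = 0.00396). Adam10 and Adam17, which shed Cx3cl1 from the membrane, were named after their values were seen and were higher by 0.29 and 0.19 (adjusted p = 0.0185 and 0.0490). Adam17 lost its call without any 1 of the 6 arrays (adjusted p 0.0796 to 0.144), and Adam10 without CD73- replicate 2 and on its dimmest probe set (0.08).

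Genes of heparan sulphate, the sugar chain that holds chemokines at the cell surface, had 8 of 17 higher and 1 lower. That is 47.1% and 5.88%, beside 10.1% and 12.6% of all genes. The syndecans Sdc1 and Sdc4, core proteins that carry these chains, were higher by 1.08 and 0.95 (adjusted p = 0.000783 and 0.000219), and Glce, an epimerase of chain synthesis, was lower, at -0.32 (adjusted p = 0.0112). Glce did not pass on its dimmest probe set (adjusted p = 0.534). Of regulators of chemokine mRNA decay 3 of 7 (42.9%) were higher, among them Zfp36 (0.95) and Zc3h12a (0.84), whose proteins bind and destabilise such mRNAs (adjusted p = 0.000163 and 0.00165). The dimmest probe set of Zc3h12a gave -0.04 and did not pass.

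The NF-kB list moved both ways, with 4 of 13 higher (30.8%) and 6 lower (46.2%), beside 10.1% and 12.6% of all genes. Bcl3 and Nfkbiz, nuclear IkB-family cofactors, were higher by 0.97 and 0.67 (adjusted p = 0.000197 and 0.000365), and Nfkb2 and Nfkbie were lower, with differences of -0.96 and -0.64 (adjusted p = 0.000257 and 0.000833). The DNA-binding subunits Rel, Rela and Relb, named after their values were seen, were also lower, at -0.58, -0.38 and -0.44. Nfkb2 did not pass on its dimmest probe set (adjusted p = 0.139). Of the interferon signalling genes, 2 of 17 (11.8%) were higher and 4 (23.5%) lower, beside the 10.1% and 12.6% of all genes.

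Socs3, an inhibitor of cytokine signalling, had 8.74, 8.78 and 8.98 in CD73+ AD-MSCs, against 7.64, 7.61 and 7.54 in CD73- AD-MSCs, a difference of 1.24 ± 0.08 (SE, adjusted p = 0.000166). Irf7, an interferon regulatory factor that is itself induced by interferon, had 9.04, 8.98 and 8.91 in CD73+ AD-MSCs, against 9.73, 9.71 and 9.65 in CD73- AD-MSCs, a difference of -0.72 ± 0.06 (SE, adjusted p = 0.000378). Ifnar2, a receptor chain for type I interferon, was higher by 0.31 and Irf5 was lower, at -0.43 (adjusted p = 0.0199 and 0.0227), and both lost their calls without some single arrays. The mean of the probe sets of Irf5 was -0.11 apart and did not pass (adjusted p = 0.358), and its dimmest probe set gave 0.22 (adjusted p = 0.210).

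**Figure D5:**
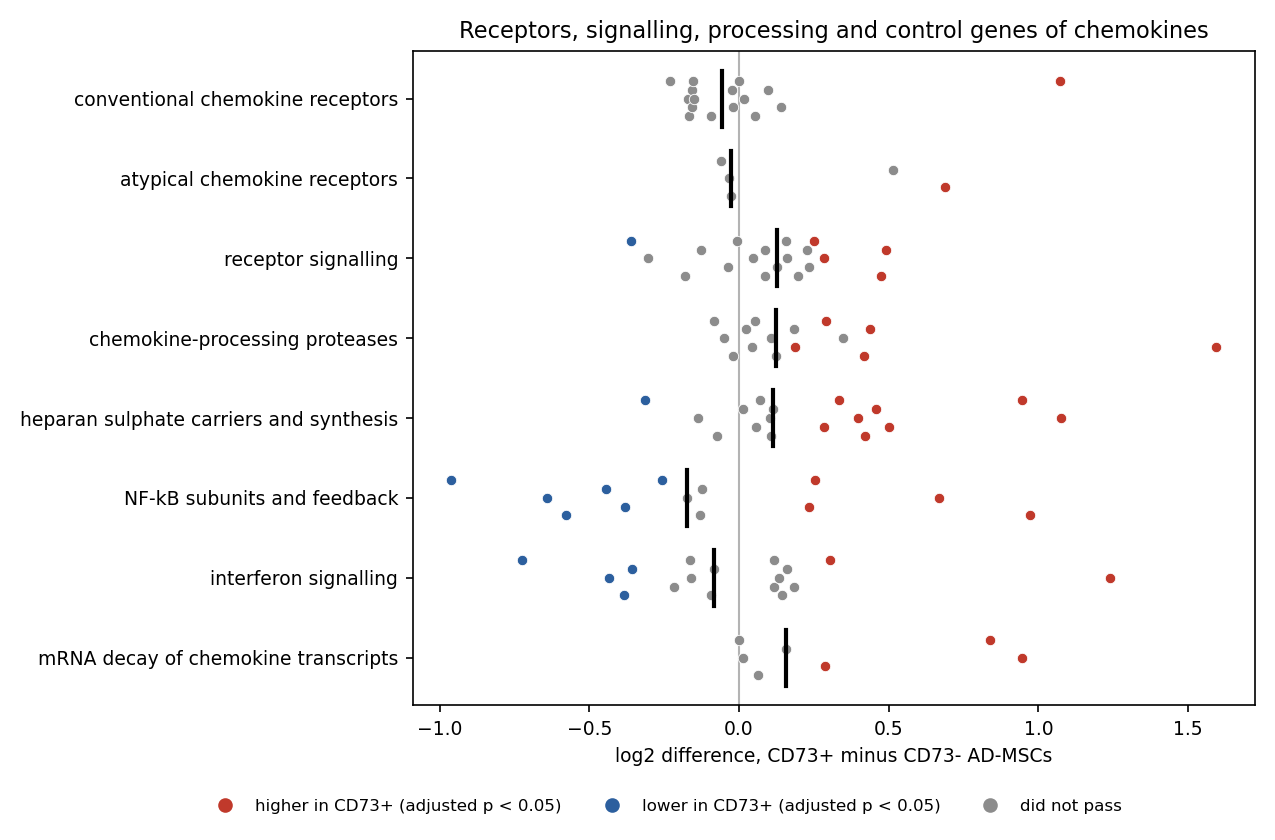
Log2 difference (CD73+ minus CD73- AD-MSCs, horizontal axis) of each measured gene in 8 lists of the chemokine system, with a black line at each list's median and colours for the limma call. The 15 receptors that did not pass lie near 0 while Cxcr6 lies at 1.07, and the NF-kB list spreads from -0.96 to 0.97, relative to the bulk of transcripts.

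Values of the whole series bear on these results as follows. Array medians lay between 5.28 and 5.37, and arrays of a subgroup differed with a median SD of 0.10. The end of the beta-actin control transcript was brighter than its start by 0.07 to 0.10 on CD73+ arrays, against 0.16 to 0.21 on CD73- arrays, a measure of RNA integrity, and that of Gapdh was dimmer, at -0.31 to -0.24 on CD73+ arrays and -0.32 to -0.27 on CD73- arrays. Nt5e, the gene of the sorted marker, had 7.84, 7.60 and 7.74 in CD73+ AD-MSCs, against 7.29, 6.39 and 6.84 in CD73- AD-MSCs (0.88, adjusted p = 0.0218). Its call was lost when the first or the third CD73+ array, or the third CD73- array, was left out (adjusted p up to 0.0763), and its dimmest probe set gave -0.12 and did not pass. Of 11 stromal markers, 7 (63.6%) were higher and 0 lower, beside 10.1% and 12.6% of all genes. Differences in this list ran from -0.13 to 1.24. Its mean signal was 9.69 to 9.72 on CD73+ arrays, against 9.21 to 9.23 on CD73- arrays, and Pdgfra, Thy1 and Col1a1 were all above the median probe set. Of 13 macrophage markers, which matter here because macrophages also make these ligands, Cd14 (0.50) and Csf1r (0.49) were higher and C1qc (-0.30) was lower. That is 15.4% higher and 7.69% lower. Csf1r gave 0.09 on its dimmest probe set and did not pass there (adjusted p = 0.390). The mean of the list was 4.53 to 4.60 on CD73+ arrays, against 4.46 to 4.56 on CD73- arrays. The leukocyte marker Ptprc had a mean signal of 3.12, and Itgam one of 3.28, both among the dim probe sets and without a difference that passed. Of T and NK cell, neutrophil and endothelial markers, 0 of 8, 0 of 5 and 0 of 9 passed in limma, with 0 in each list at an unadjusted p under 0.05. Of B cell, mast cell, and pericyte and smooth muscle markers, 0 of 4, 0 of 6 and 0 of 7 passed, with 1, 1 and 3 at an unadjusted p under 0.05. Of all 18193 genes, 10.1% were higher and 12.6% lower, and 6230 had an unadjusted p under 0.05 in limma. At such shares a list this short may hold no gene that passes, so these counts do not show that the markers were equal. Zbtb46 of the dendritic cell list (-0.35) and Pparg of the adipocyte list (-0.24) were lower and Msln of the mesothelial and epithelial list (0.61) was higher, and each of these 3, like C1qc, lost its call without 2 or more of the single arrays. The part that the stromal, macrophage and RNA integrity values have in the ligand differences was not tested.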

How the data were processed

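RNA of 3 CD73+ and 3 CD73- AD-MSC samples was read on Affymetrix arrays. Log2 values of 45101 probe sets were deposited by the authors, made with RMA according to the submitters' processing notes; neither its version nor a genome build is named there. RMA corrects the background, equalises the arrays' distributions and summarises probes, which takes out a common shift and tends to compress small ratios. Values were used as deposited. Without its 64 controls, the table's 45037 probe sets were fitted in limma 3.58.1 under R 4.3.3 (lmFit, eBayes, no block, no filter) and adjusted together by the Benjamini-Hochberg method, with calls at 0.05. The methods name no test for the arrays. Of the probe sets, 34945 carry 1 symbol, 932 several and 9160 are unnamed here, and a gene was read from its brightest probe set with 1 symbol. All 32 ligands matched RefSeq by Entrez ID. The ligands and the 28 gene lists were chosen with earlier results of these data known. Values are given for every ligand that passed, for the 5 brightest and for the 3 of largest size that did not pass, and from each list for up to 2 members with the largest rise and 2 with the largest fall; receptors of the ligands were named for what they bind. Simulated data with fixed seeds served to test the fit. Alternatives were a replicate block, other normalizations, scaling to the poly-A controls, a filter on dim probe sets, other eBayes priors, array weights, one-way ANOVA, leaving out each array, other probe sets and a log2 limit of 0.5. The arrays' number limits the precision. Plots were made in Python 3.11.15 (matplotlib 3.10.9). Promoters are RefSeq sequences of GRCm38.p6.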

Additional observations from a re-analysis of the deposited data

How the results depend on the processing

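Under 19 alternative settings, 5 of the 15 ligands that passed kept their direction and call in every one that gave them a value. One of these, Cxcl5, had no value under the filter at the median signal. The calls of 10 changed at most under poly-A scaling or the choice of probe set, apart from Cx3cl1 (0.46), which falls under a log2 limit of 0.5. Without each array in turn, 12 kept the call. Without single arrays, 9 to 10 ligands were higher and 3 to 5 lower (3 without CD73- replicate 2), and 19 to 26 pathway genes were higher and 8 to 12 lower. The calls lost were those of Ccl24 (adjusted p 0.0372 to 0.150, lost without any CD73- array or either of the first 2 CD73+ arrays), Cxcl16 (0.0225 to 0.0594, lost without CD73+ replicate 1 or CD73- replicate 2) and Cxcl3 (0.00367 to 0.0531, lost without CD73- replicate 1 or either of the first 2 CD73+ arrays). One-way ANOVA with the same adjustment called 7 ligands higher and 5 lower, without Ccl8, Cxcl2, Cxcl3 and Ccl24 and with Ccl28. The log2 limit left 9 higher and 3 lower ligands. Dim ligands had no value under the filter at the median signal. Ccl25 passed under quantile normalization, this filter, an eBayes trend and array weights, and without CD73- replicate 3. Ccl27a passed under quantile normalization and median centring (adjusted p = 0.0446 and 0.0440), Ccl28 under the filter (0.0458), Cxcl9 without CD73+ replicate 1 and Ccr6 without CD73+ replicate 3.

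Scaling to the poly-A controls added 0.93 to every difference, by its construction, and gave 30 ligands higher and 0 lower, 108 pathway genes higher and 0 lower, and a ligand median of 0.98. Of all 45037 probe sets, 44707 were higher and 33 lower under it. Signs turned for Ccl22 (0.80), Ccl24 (0.65), Ccl25 (0.61), Ccl27a (0.70), Ccl28 (0.80), Ccl3 (0.68), Ccl5 (0.0022), Cxcl10 (0.40), Cxcl13 (0.77), Cxcl14 (0.80), Cxcl16 (0.63), Cxcl17 (0.90), Cxcl9 (0.65), Pf4 (0.86), Gnb1 (0.56), Glce (0.61), Nfkbie (0.29), Irf7 (0.20), Irf5 (0.49), Rel (0.35), Rela (0.55), Relb (0.48), C1qc (0.63), Zbtb46 (0.58), Pparg (0.69), Cxcr2 (0.78), Ccr2 (0.77), Ccr8 (0.76), Ccr1 (0.76), Ccr6 (0.69), Cx3cr1 (0.93) and Cxcr3 (0.90). On the dimmest probe set signs turned for Irf5 (0.22), Zc3h12a (-0.041), Ccr2 (0.28), Nt5e (-0.12) and Zbtb46 (0.012), and the cause was not tested.

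Deviations of arrays with the same replicate number correlated at -0.14, 0.03 and -0.14 for the 3 numbers, so no pairing by number was seen. With only 3 arrays in each subgroup, these values cannot exclude that such arrays share an animal, sort or culture. With a replicate block, 10 ligands were higher and 5 lower, and 22 pathway genes were higher and 10 lower. The block took the calls of Ackr3 (adjusted p = 0.0685), Adam10 (0.0658), Adam17 (0.138), C1qc (0.0736), Zbtb46 (0.0780) and Pparg (0.0865), and changed no call among the 32 ligands.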
